A study of Mus musculus with 6 samples.

Results

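The *Armcx* genes, their relative *Armc10* and the *Gprasp* genes were followed in RNA-seq libraries of brain tissue from 3 control mice and 3 *AP1AR-DT*-overexpressing (*AP1AR-DT*-OE) mice. The 9 members, *Armcx1* to *Armcx6*, *Armc10*, *Gprasp1* and *Gprasp2*, were found by gene symbol among the 52390 genes of the count table, 1 row each. *Armcx6* was selected on its rise between these same libraries, and the other 8 genes were taken by family name to ask whether that rise was mirrored by falls among its relatives. The change of *Armcx6* is therefore described without a test. The mice were male C57BL/6 animals, the controls labelled as wild type, that received a recombinant adeno-associated virus in the medial prefrontal cortex at the age of 8 weeks. In *AP1AR-DT*-OE mice the virus carried the human lncRNA *AP1AR-DT*, labelled AC109347.1 for GEO, driven by human synapsin I promoter sequence, which is used to restrict expression to neurons, with CMV-driven EGFP as a reporter. The RNA came from the medial prefrontal cortex by the study's results, from cortical tissue by its methods and from brain by the labels. Control mice received an empty vector of the same kind. The control libraries are numbered 1 to 3 as the mice are. The *AP1AR-DT*-OE columns show the group but not which mouse, and are called A, B and C.

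Proteins with armadillo repeats fold into stacked helices that bind other proteins. *Armc10* is an autosomal gene found across vertebrates, and the X-linked *Armcx* genes are thought to have arisen in placental mammals from a retrotransposed copy of it, after which the group expanded in tandem. ARMCX1 and ARMCX3 sit on mitochondria and bind the Miro and TRAK adaptors that load mitochondria onto kinesin motors in axons, and *Armcx1* is known for promoting mitochondrial transport in injured axons. The *Gprasp* genes encode sorting proteins that bind the tails of G protein-coupled receptors and steer some of them to lysosomes. The group is strongly expressed in neurons.

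By GENCODE vM21 on GRCm38, *Armc10* (ENSMUSG00000038525) lies on chromosome 5 and the other 8 members on the X chromosome. One block there holds, in this order, *Armcx4*, *Armcx1*, *Armcx6*, *Armcx3* and *Armcx2*. *Armcx6* (ENSMUSG00000050394) runs on the minus strand from 134748461 to 134751417, and *Armcx3* (ENSMUSG00000049047) on the plus strand from 134756595 to 134761455, so that they run away from each other with starts 5.18 kb apart. *Armcx5*, *Gprasp1* and *Gprasp2* lie further along the chromosome, where *Armcx5* and *Gprasp1* are annotated from the same base, 135742733. The coding sequence of each X-linked member sits in 1 exon, against 6 coding exons in *Armc10*. Among the proteins translated from these transcripts, the ARMCX1 and ARMC10 pair was the most alike, with 55.3% identical residues over 253 aligned ones. ARMCX6, with 301 residues, was closest to ARMC10 at 38.2% over 241 residues, and next to ARMCX1 at 34.8% over 299.

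Among annotated transcripts, the copy that shares exact stretches of 100 bases with *Armcx6* is a pseudogene and not another member. Copies outside the annotation, or with a mismatch in every such stretch, were not searched. No stretch of 100 bases of the longest *Armcx6* transcript occurs in a transcript of another member, while 327 of its 2021 stretches (16.2%) occur in *Gm16397*, a processed pseudogene 16.4 kb away on the opposite strand, between *Armcx1* and *Armcx6*. Both copies align over 493 bases with 98.6% identity and 7 mismatches, mostly within the *Armcx6* coding sequence. The window of 120 coding bases with the most differences is shown to make plain how little separates both copies, with the 5 differing bases in capitals. It lies at chrX:134749530-134749649 on the minus strand for *Armcx6* and at chrX:134731590-134731709 on the plus strand for *Gm16397*, from the GENCODE transcripts on GRCm38.
Armcx6: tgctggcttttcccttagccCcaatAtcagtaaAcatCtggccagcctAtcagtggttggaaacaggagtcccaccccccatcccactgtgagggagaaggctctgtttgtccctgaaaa
Gm16397: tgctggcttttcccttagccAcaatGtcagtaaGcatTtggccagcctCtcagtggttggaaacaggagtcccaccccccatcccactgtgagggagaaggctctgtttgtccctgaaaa

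RefSeq promoter windows on GRCm38.p6, 250 bases before to 50 after a gene's start, matched 8 of the 9 members, all but *Armcx3*. The 250 bases before the *Armcx6* start (chrX:134751420-134751669, minus strand) are shown because this gene changed the most, and those before the start shared by *Armcx5* and *Gprasp1* (chrX:135742442-135742691, plus strand) because both genes have the same window and very different levels. CpG dinucleotides are in capitals.
Armcx6: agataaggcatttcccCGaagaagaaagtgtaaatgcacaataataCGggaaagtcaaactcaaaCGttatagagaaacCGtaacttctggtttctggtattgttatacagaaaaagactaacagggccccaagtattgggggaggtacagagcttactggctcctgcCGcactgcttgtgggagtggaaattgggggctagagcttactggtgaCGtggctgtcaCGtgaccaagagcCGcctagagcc
Armcx5 and Gprasp1: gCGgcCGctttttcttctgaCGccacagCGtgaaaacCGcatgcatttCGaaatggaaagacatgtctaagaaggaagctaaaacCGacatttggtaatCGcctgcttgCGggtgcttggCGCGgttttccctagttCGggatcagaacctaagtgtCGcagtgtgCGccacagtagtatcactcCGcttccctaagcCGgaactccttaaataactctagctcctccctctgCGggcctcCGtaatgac

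The 300-base window of *Armcx6* held 10 CpG dinucleotides and that of *Armcx5* and *Gprasp1* 25, where the median of all 32851 windows was 7. The core of the binding motif of NRF1, a factor the study examined at another promoter, was searched as GCGCNNGCGC, which reads the same on both strands. It was found in 0 of the windows of the 8 matched members and in 6.23% of all windows. At that share, 8 windows are too few for an absence to be read. The NRF1 motifs that the study predicted at that other promoter do not hold this exact string. The search therefore does not show whether NRF1 sites of another form are present.

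The library totals lay between 42061721 and 54668294 counts. Some libraries stood apart in markers of other brain parts, given as the sum of normalized CPM (counts scaled to a common total with edgeR's TMM factors) over a list. The 6 choroid plexus markers summed to 3821 in control 3 and to between 15.6 and 29.9 in the other 5 libraries. The 7 hypothalamic markers summed to 603 in control 2, 75.7 in control 3 and between 6.61 and 29.0 elsewhere. In control 3 the 6 oligodendrocyte markers reached 10644 against 5048 to 6430 elsewhere, and the 6 inhibitory neuron markers 1011 against 1699 to 2085. The 6 excitatory neuron markers were lowest in control 2, at 1098, against 1908 and 1880 in controls 1 and 3. In *AP1AR-DT*-OE libraries A, B and C they summed to 2298, 2778 and 1632. All 6 had a log2 fold change above 0, with a median of 0.98, and 0 were called by edgeR's test at *P* under 0.05. Markers common to neurons summed to between 2839 and 3697 in the 6 libraries, and no marker of any list was at 0 in every library. In bulk tissue, fewer cells of a type and less RNA per cell cannot be told apart.

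*Armcx6* was nearly silent in control mice and clearly expressed in *AP1AR-DT*-OE mice. It had 15, 37 and 38 counts in controls 1, 2 and 3 and 484, 500 and 631 counts in *AP1AR-DT*-OE libraries A, B and C. In normalized CPM these were 0.369, 0.743 and 0.761 against 9.13, 9.27 and 12.02. The groups were far apart, and the lowest *AP1AR-DT*-OE library was above the highest control by more than the spread within either group. The means were 0.624 ± 0.221 (SD, n = 3) and 10.1 ± 1.63 (SD, n = 3), a difference of 9.52 normalized CPM. Its log2 fold change was 4.01 with a standard error of 0.32, the 11th highest of the 21844 genes tested. Over all 14 fits made, among them those that left out 1 library each, it lay between 3.75 and 4.18.

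**Figure D1:**
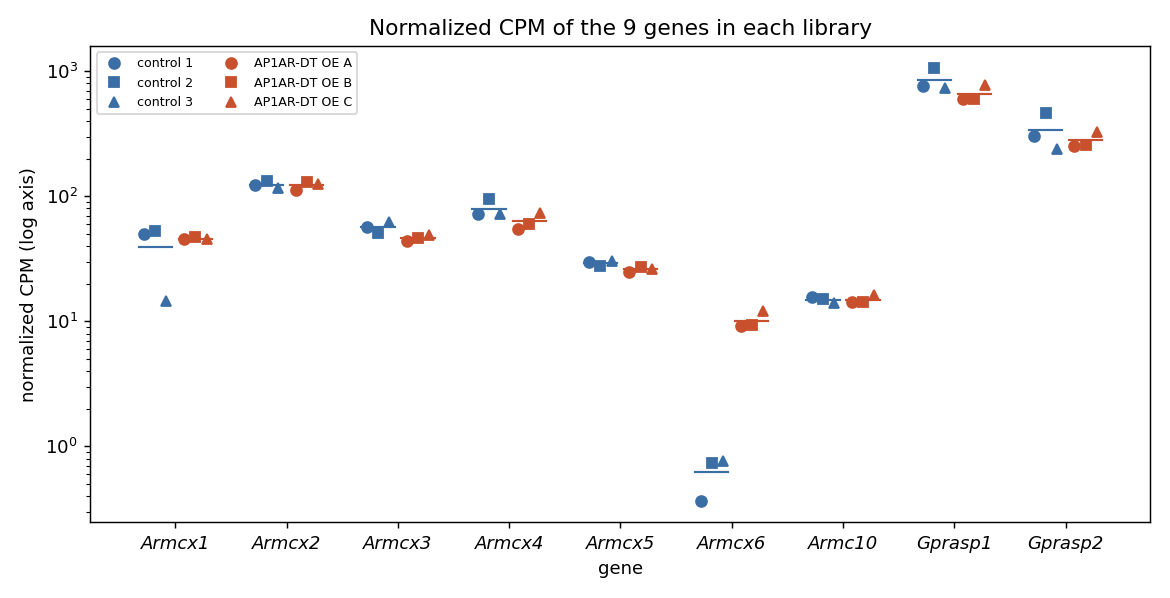
Normalized CPM on a log axis for each of the 9 genes in each library, with control libraries in blue, *AP1AR-DT*-OE libraries in red, marker shapes for single libraries and lines for group means. *Armcx6* is the gene whose groups stand far apart, from at most 0.761 in controls to at least 9.13 in *AP1AR-DT*-OE libraries, and control 3 is the low point of *Armcx1* at 14.6.

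Even after its rise *Armcx6* remained the member with the lowest mean. Levels between genes were compared as normalized CPM per kb of the longest transcript. *Gprasp1* was highest in both groups, with a control mean of 146 ± 32.1 (SD, n = 3) and an *AP1AR-DT*-OE mean of 113 ± 16.7 (SD, n = 3), followed by *Gprasp2* with means of 88.5 and 73.6 and by *Armcx2*, which lay between 29.6 and 35.4 in the 6 libraries. These 3 genes did not overlap with each other within either group. *Armcx3*, *Armcx1*, *Armcx5* and *Armcx4* had group means between 7.88 and 19.1, and in control mice each overlapped with the next in that order. In *AP1AR-DT*-OE mice *Armcx5* and *Armcx4* overlapped, while *Armcx1* lay above *Armcx3* and *Armcx3* above *Armcx5* in every library. *Armc10* followed at 5.53 and 5.52. *Armcx6* had a control mean of 0.294 ± 0.104 (SD, n = 3) and an *AP1AR-DT*-OE mean of 4.78 ± 0.770 (SD, n = 3), where its range of 4.30 to 5.67 overlapped with the 5.27 to 5.99 of *Armc10*. *Armcx5* and *Gprasp1*, annotated from the same start, differed in level in every library.

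**Figure D2:**
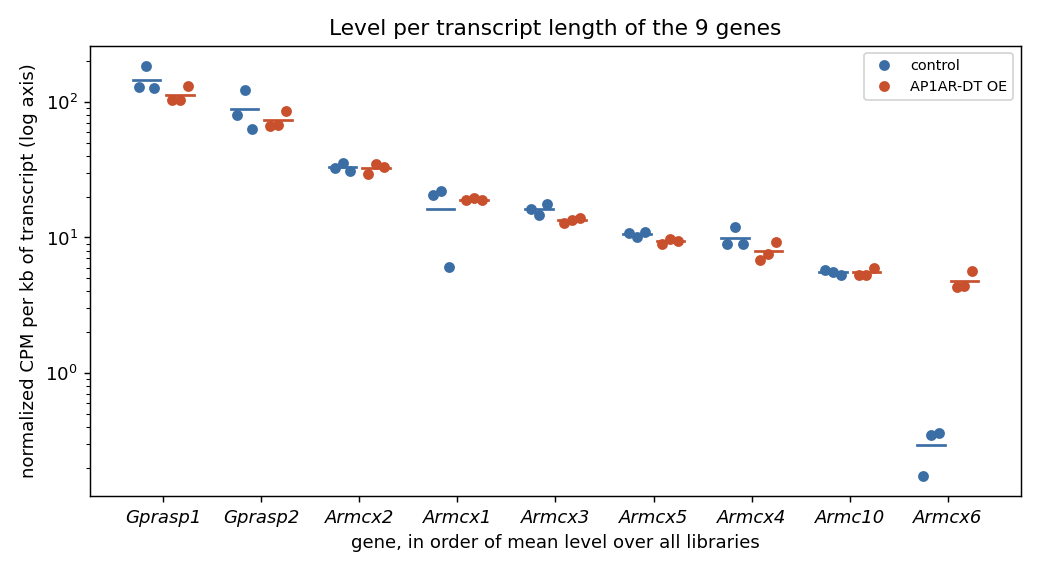
Normalized CPM per kb of the longest transcript on a log axis, with a point for each library and a line for each group mean, control in blue and *AP1AR-DT*-OE in red. The order of the genes is alike in both groups apart from *Armcx1* and *Armcx3*, and *Armcx6* moves from far below *Armc10* in control mice to overlap with it in *AP1AR-DT*-OE mice.

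A gene was called a differentially expressed gene (DEG) at *P* under 0.05 and a log2 fold change above 0.32 in size, by edgeR's quasi-likelihood test on all genes. Of the 8 relatives, 0 were called higher and 0 lower, where 5.10% of all genes tested were called higher and 7.15% lower. At *P* under 0.05 alone there was 1, *Armcx3*, and 0 passed Benjamini-Hochberg adjustment over all genes. With DESeq2 the count of lower calls was 1, *Gprasp1*, and that of higher calls 0. The log2 fold changes of the 8 relatives had a median of -0.22 and were below 0 in 7, against a median of -0.014 over all genes, of which 51.5% were below 0. With DESeq2, with its size factors or with library totals, 6 of the 8 were below 0, since *Armc10* then lay just above it. Among the 845 X-linked genes tested the median was -0.13. The groups did not overlap in 2 relatives, both lower in *AP1AR-DT*-OE mice, and in 0 that were higher, where 11.99% of all genes tested were lower and 10.44% higher without overlap.

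*Armcx3*, the neighbour of *Armcx6* and an adaptor of mitochondrial transport, was one of these. It had 56.6, 51.0 and 61.8 normalized CPM in controls 1 to 3 and 44.3, 46.8 and 48.7 in *AP1AR-DT*-OE libraries A to C. Every *AP1AR-DT*-OE library was below every control, although control 2 and library C were close. The log2 fold change was -0.28 with a standard error of 0.10, below the size needed for a call. edgeR's *P* was 0.0322, its adjusted *P* 0.309 and the exact permutation *P* 0.1, the smallest that 3 mice against 3 allow. Corrected for the GC content of the transcripts, which is 43.1% in *Armcx3*, the log2 fold change was -0.085 and edgeR's *P* was 0.422. Without control 2 it was -0.34 and passed as a DEG. The processed pseudogene *Gm9299* on chromosome 7 shares 25.3% of the 100-base stretches of *Armcx3*. Its control mean was 13.0 ± 1.15 (SD, n = 3) normalized CPM and its *AP1AR-DT*-OE mean 10.8 ± 1.65 (SD, n = 3), with a log2 fold change of -0.26, a standard error of 0.16 and overlap between groups.

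*Armcx5* was the other gene without overlap. It ranged from 27.9 to 30.6 normalized CPM in control mice and from 25.0 to 27.2 in *AP1AR-DT*-OE mice, with a log2 fold change of -0.17, a standard error of 0.097 and an adjusted *P* of 0.423 by edgeR. With correction for GC content, 43.5% in this gene, the log2 fold change was 0.0089.

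*Armcx1* was marked by 1 library. It had 49.6 and 53.0 normalized CPM in controls 1 and 2 but 14.6 in control 3, the library with the choroid plexus markers. The *AP1AR-DT*-OE libraries lay close together at 45.4, 47.2 and 45.5. The log2 fold change was 0.24 with a standard error of 0.42 and an adjusted *P* of 0.816, and without control 3 it was -0.14 with a standard error of 0.095. The part of the choroid plexus, oligodendrocyte and inhibitory neuron markers in the low *Armcx1* value of control 3 was not tested.

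*Armcx4* and *Armcx2* overlapped between groups. *Armcx4* had 71.8, 95.5 and 72.0 normalized CPM in controls 1 to 3 and 54.5, 60.3 and 74.3 in libraries A to C. Control 2 stood above the rest, and library C lay above both other controls. The log2 fold change was -0.34 with a standard error of 0.16 and an adjusted *P* of 0.367 by edgeR. It was -0.18 without control 2 and -0.46 without library C, where it passed as a DEG. *Armcx2* differed little, at 124 ± 8.61 (SD, n = 3) and 123 ± 9.68 (SD, n = 3), with a log2 fold change of -0.022 and a standard error of 0.098. *Armc10*, the autosomal relative, ranged from 14.2 to 15.6 in control mice and from 14.2 to 16.2 in *AP1AR-DT*-OE mice, with a log2 fold change of -0.0013 and a standard error of 0.12.

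The *Gprasp* genes were highest in control 2, the library with the highest sum of hypothalamic markers and the lowest of excitatory neuron markers. *Gprasp1* had 758, 1072 and 737 normalized CPM in controls 1 to 3 and 606, 601 and 772 in libraries A to C. Libraries A and B were below every control, whereas library C was above controls 1 and 3. The log2 fold change was -0.38 with a standard error of 0.18, with an adjusted *P* of 0.364 by edgeR and an exact permutation *P* of 0.3. DESeq2 gave a log2 fold change of -0.37, past the DEG thresholds. In edgeR's test it was -0.17 without control 2, and -0.46 without control 3 and -0.49 without library C, where it also passed as a DEG. *Gprasp2* had 305, 466 and 241 in controls 1 to 3 and 255, 260 and 328 in libraries A to C. Control 3 was the lowest of all 6 libraries and control 2 the highest, so that the control range enclosed the *AP1AR-DT*-OE range. The log2 fold change was -0.27 with a standard error of 0.24 and an adjusted *P* of 0.614, and without control 2 it was 0.046. *Bhlhb9* (also called *Gprasp3*), a further gene of this family, whose annotated span overlaps both *Gprasp1* and *Gprasp2*, was also highest in control 2. It had 90.5, 97.2 and 70.6 in controls 1 to 3 and 70.2, 63.6 and 79.2 in libraries A to C, with a log2 fold change of -0.28, a standard error of 0.15 and an adjusted *P* of 0.398. *Gprasp1*, *Gprasp2*, *Bhlhb9* and *Armcx5* each share between 7.26% and 10.3% of their 100-base stretches with others of the 4, so counts could be split between them. Control 3 was next highest in hypothalamic markers, at 75.7 against 603 in control 2, and was the lowest library for *Gprasp2*. The part of the hypothalamic and excitatory neuron markers in the high values of control 2 was not tested.

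**Figure D3:**
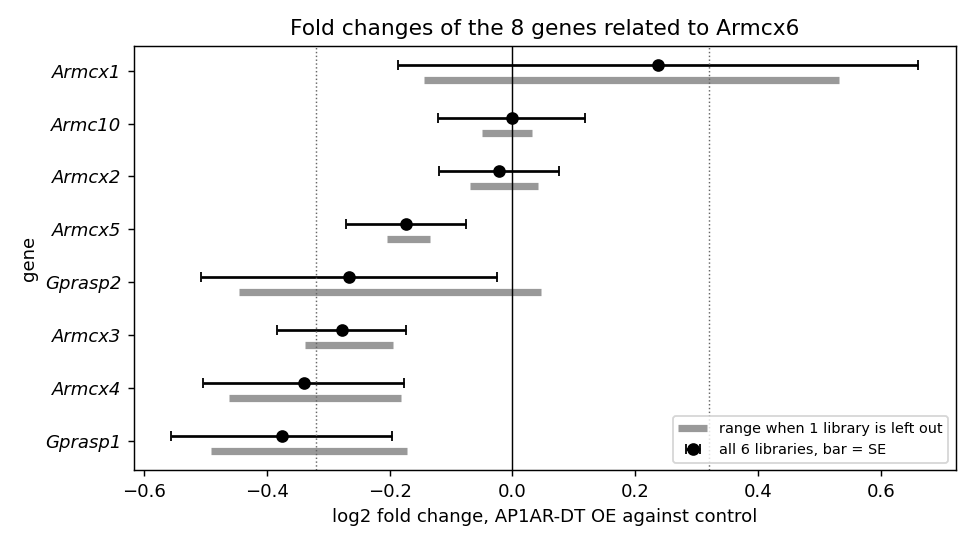
Log2 fold change of the 8 relatives of *Armcx6* (points, with bars for the standard error) and its range when 1 library is left out (grey). Dotted lines mark the size of 0.32 that a DEG needs, and the grey ranges of *Armcx1*, *Armcx2*, *Armc10* and *Gprasp2* cross 0.

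**Figure D4:**
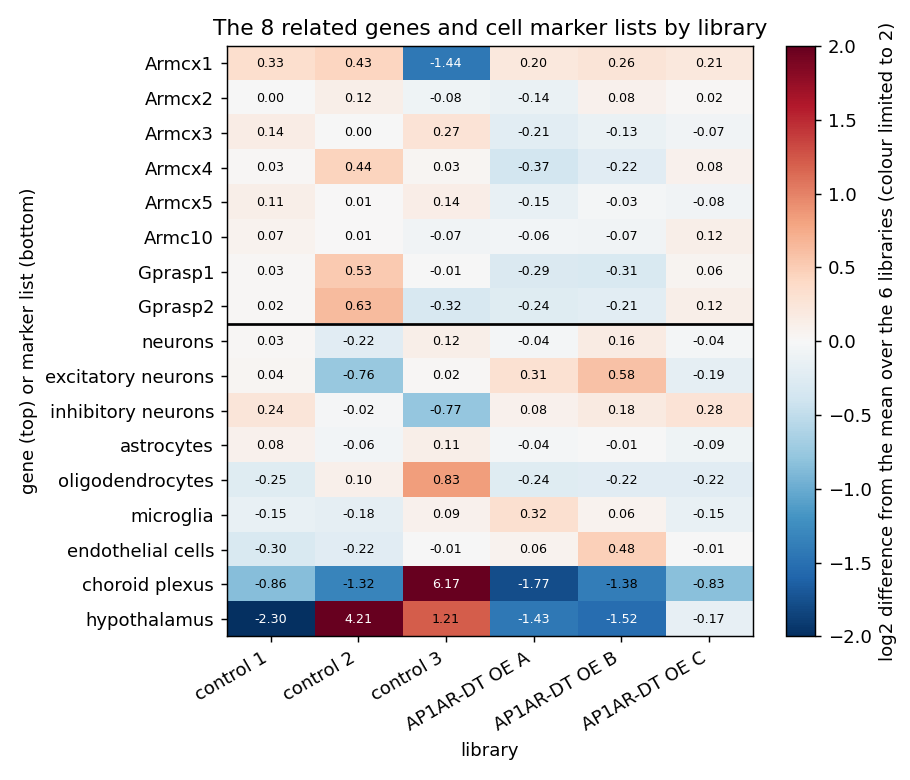
Log2 difference of each library from the mean over the 6 libraries, for the 8 relatives of *Armcx6* (top) and for the summed markers of each list (bottom). Control 2 is high in *Armcx4*, *Gprasp1*, *Gprasp2* and the hypothalamic list, at 0.44, 0.53, 0.63 and 4.21, and low in the excitatory neuron list at -0.76. Control 3 is low in *Armcx1* at -1.44 and high in the choroid plexus and hypothalamic lists, at 6.17 and 1.21.

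The gain of *Armcx6* was small beside the level of the group. The 8 relatives together had 1410, 1914 and 1288 normalized CPM in controls 1 to 3 and 1156, 1187 and 1436 in libraries A to C. The groups overlapped, with means of 1537 ± 332 (SD, n = 3) and 1260 ± 154 (SD, n = 3), and the difference of -278 came mostly from *Gprasp1* at -196 and *Gprasp2* at -56.9. The log2 ratio of the summed means was -0.29, and -0.099 without control 2, where both *Gprasp* genes were highest. In normalized CPM, not scaled for transcript length, *Armcx6* made up 0.0406% of the sum of all 9 members in control mice and 0.799% in *AP1AR-DT*-OE mice. *Armcx1* to *Armcx5* summed to 329 ± 32.9 (SD, n = 3) and 304 ± 20.5 (SD, n = 3). The *Armcx6* mean equalled 0.190% of that sum in control mice and 3.33% in *AP1AR-DT*-OE mice.

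The pseudogene copy of *Armcx6* was not called. *Gm16397* had 17, 52 and 28 counts in controls 1 to 3 and 64, 53 and 72 in libraries A to C, and in normalized CPM control 2 lay above library B. Its log2 fold change was 0.81 with a standard error of 0.43 and an adjusted *P* of 0.410 by edgeR. When 1 library was left out it ranged from 0.56 without control 1 to 1.28 without control 2. Summed with *Armcx6* it gave a control mean of 1.30 ± 0.501 (SD, n = 3) normalized CPM and an *AP1AR-DT*-OE mean of 11.3 ± 1.79 (SD, n = 3). Reads from the shared coding stretch may be counted for either copy.

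No other gene around *Armcx6* had a change of its size upward. Within 1500 kb of its start, 32 genes that are no members were tested, 1 of them called higher and 3 lower (*Sytl4*, *Cstf2* and *Zmat1*), with a median log2 fold change of -0.10. These counts are near the shares over all genes, 5.10% called higher and 7.15% lower. The 3 tested genes before *Armcx6* on the chromosome were *Armcx4*, *Armcx1* and *Gm16397*, and the 3 after it *Armcx3*, *Armcx2* and *Zmat1*. *Zmat1*, a zinc finger gene, was called lower at -0.53 with a standard error of 0.22 (adjusted *P* = 0.322), with overlap between groups. *Tceal6*, of a family of small nuclear proteins, was the gene called higher, at 0.34 with a standard error of 0.11 (adjusted *P* = 0.295). *Armcx6* at 4.01 was the highest in this stretch, followed by *Gm16397*.

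**Figure D5:**
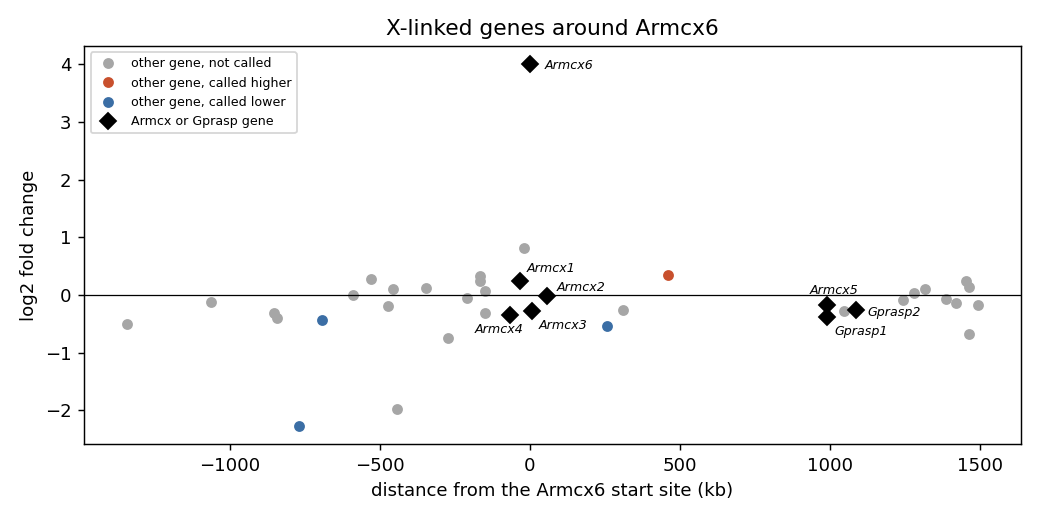
Log2 fold change of each tested gene within 1500 kb of the *Armcx6* start site, by the distance of its own start in kb, with members as black diamonds. *Armcx6* stands at 4.01, while the other members in the window lie between -0.38 and 0.24.

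Genes with a profile over the 6 libraries like that of *Armcx6* were found by root mean square difference. It was taken on the log2 of normalized CPM plus 0.5, each gene centred on its own mean. The added 0.5 is of the size of the *Armcx6* control values, 0.369 to 0.761, and lowers its rise on this scale. The closest genes were *Lifr*, a cytokine receptor gene, *Ccdc22* and *Rpl27*, a ribosomal protein gene, and 0 of them is a member. Their differences from *Armcx6* were 0.62, 0.63 and 0.72 log2 units. The log2 fold changes of *Lifr* and *Rpl27*, 2.13 and 2.29, were well below the 4.01 of *Armcx6*, while that of *Ccdc22* was 4.66. *Ccdc22*, another X-linked gene, had 0, 0 and 12 counts in controls 1 to 3 and 87, 162 and 96 in libraries A to C.

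Genes that work with this family were read from lists of known partners, whose small counts are set against the 5.10% of all genes called higher and 7.15% called lower. Of 18 genes of mitochondrial transport (Miro, TRAK, kinesin and dynein subunits and anchors), 2 were called higher and 1 lower, with a median log2 fold change of 0.043. *Kif5b*, the ubiquitous kinesin-1 heavy chain, was lower at -0.61 with a standard error of 0.14. *Klc2*, a kinesin light chain, was higher at 0.37 with a standard error of 0.11, and *Snph*, which anchors axonal mitochondria, at 0.41 with a standard error of 0.16, though its groups overlapped. Of 11 genes of mitochondrial fusion and fission, 1 was called higher, *Mief2*, and 3 lower. The 3 were *Dnm1l*, which encodes the fission dynamin, at -0.51, the protease gene *Yme1l1* at -0.54 and *Gdap1* at -0.40, each without overlap between groups. Of 5 tested partners of GPRASP sorting, 2 were called higher. *Oprd1*, the delta opioid receptor that GPRASP1 sorts, had 7.10, 4.58 and 4.32 normalized CPM in controls 1 to 3 and 13.5, 10.5 and 7.17 in libraries A to C, a log2 fold change of 0.97 with a standard error of 0.29, and library C was barely above control 1. *Dtnbp1*, which encodes dysbindin, was higher at 0.41 with a standard error of 0.12. These calls moved with GC content. *Kif5b*, *Dnm1l*, *Yme1l1* and *Gdap1*, called lower, had transcripts of 38.0% to 41.1% GC, and *Klc2*, *Snph*, *Oprd1* and *Dtnbp1*, called higher, of 54.9% to 60.4%. With correction for GC content, 1 of these 4 lower genes, *Kif5b* at -0.37, and 1 of these 4 higher genes, *Oprd1* at 0.82, were still called. *Mief2*, also called higher, was not read for GC content. Of 11 *Bex* and *Tceal* genes of the same X region, *Tceal6* was called higher and *Tceal1* lower, and of 16 other X-linked neighbours 0 were called higher and 2 lower, *Rab9b* at -0.62 and *Zmat1*. With correction for GC content *Tceal6*, *Tceal1*, *Rab9b* and *Zmat1* were at 0.21, -0.078, -0.39 and -0.29 and were not called. Of 23 other armadillo repeat genes 0 were called by edgeR's test, with 2 at an unadjusted *P* under 0.05, *Kpna3* and *Kpna4*, and 2 were called by DESeq2, *Apc2* and *Armc3*. *Mief2*, *Sytl4*, *Cstf2* and these 4 genes were picked out after their values were seen. The adjusted *P* of each gene of these lists was above 0.05 by edgeR's test.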

How the data were processed

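RNA from brain tissue of 3 control and 3 *AP1AR-DT*-OE mice was sequenced as read pairs. Per the study's methods, the authors mapped reads to GRCm38 with Bowtie2, which does not split reads at introns, and derived gene counts from StringTie. The raw whole-number counts were deposited without normalization and are the unit used here. The submitters' processing notes name other tools and another build (TopHat2 2.0.4, HTSeq, Cuffdiff, edgeR 2.6.12, mm9), and the cause of the difference was not resolved. The strand setting of the counting is not given in the sources used here. The table also holds the authors' own DESeq2 comparison (mean, fold changes, P-values), which was not used.

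Of 52390 genes, 21844 passed filterByExpr and were tested in R 4.3.3 with edgeR 4.0.16 (TMM factors, quasi-likelihood F-test, two-sided, no covariate, Benjamini-Hochberg adjustment over all genes). All 9 members passed. The standard error given with edgeR's log2 fold changes is the size of the change divided by the square root of the F statistic. Library totals were 42061721 to 54668294, and the precision of each fold change rests on 3 mice a group. No pair of libraries agreed within sampling noise (lowest chi-square per gene 44.4, between *AP1AR-DT*-OE libraries A and B). The controls did not group together on this measure. Against library C it was 54.8 for control 1 and 58.3 for control 2. Between controls it was 70.3 for 1 and 2, 94.7 for 1 and 3, and 95.3 for 2 and 3. The fits with edgeR, DESeq2 and limma-voom were tried on simulated counts with a common dispersion for all genes. The GC correction, the fits that left out a library, the sequence searches and the profile search were not tried in this way. Alternatives were DESeq2 1.42.0, its size factors, library totals, limma-voom (limma 3.58.1), other filters on low counts, a correction for GC content (natural spline, 5 degrees of freedom) and leaving out each library. Shared sequence was searched in GENCODE vM21 transcripts in stretches of 100 bases, and proteins were aligned with Biopython 1.88. That annotation holds 52081 of the table's gene identifiers. The table's own coordinates differ from GRCm38 and were not used. The genes named are the members and *Bhlhb9*, genes sharing sequence or span with them, the 3 tested neighbours on each side of *Armcx6*, the 3 closest profiles, and up to 3 called genes of smallest *P* per list. The members, the lists and the tests were chosen with earlier results of these data known.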

Additional observations from a re-analysis of the deposited data

How the results depend on the processing

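None of the 8 relatives of *Armcx6* was called higher in any of the 13 alternatives. The number of DEGs over all genes, 2675, was 1566 after GC correction and between 1430 and 3508 when 1 library was left out, with 1430 without *AP1AR-DT*-OE library B and 1620 without library A. Lower calls among the 8 relatives, 0 with all libraries, were 1 with DESeq2 and between 0 and 2 when 1 library was left out. They were *Gprasp1* with DESeq2 and without control 3, *Armcx3* without control 2, and *Armcx4* and *Gprasp1* without *AP1AR-DT*-OE library C. The number of relatives below 0 ranged from 4, without control 2, to 8, without control 3, and their median log2 fold change was -0.083 after GC correction and -0.080 without control 2. GC correction did not shrink every fall. With it *Armcx4* was at -0.38, *Gprasp1* at -0.32 and *Gprasp2* at -0.23, near their values without it. *Armcx2* was then at -0.082 and *Armcx1* at 0.40, and 5 of the 8 relatives were below 0. Signs changed in single genes that were not called in any setting concerned: *Armcx1* was -0.14 without control 3 and at most 0.53 without another library, *Armcx5* 0.0089 after GC correction, and, when 1 library was left out, *Gprasp2* ranged from -0.45 to 0.046, the latter without control 2, and *Armcx2* from -0.069 to 0.042, above 0 without control 2 or *AP1AR-DT*-OE library A. *Armc10*, near 0 throughout, was 0.0079 with DESeq2, 0.0051 with DESeq2's size factors, 0.0044 with library totals, 0.0080 with no filter on low counts, 0.12 after GC correction, and between -0.050 and 0.032 when 1 library was left out. The causes of these shifts were not tested. After leaving out control 3, 52.2% of DEGs were higher, against 41.6% with all libraries. No paired analysis was possible because the groups share 1 mouse number at most and the *AP1AR-DT*-OE columns do not show which mouse they are. At the depth of *Armcx6* in control mice, 15 to 38 counts, counting error alone is large.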

Other observations

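*Armcx3* and *Armcx6*, which are divergent neighbours, were set side by side after their values had been seen. In normalized CPM, which is not scaled for transcript length, *Armcx6* gained 9.52 and *Armcx3* differed by -9.90. Their sum was 56.9, 51.8 and 62.6 normalized CPM in controls 1 to 3 and 53.4, 56.0 and 60.7 in *AP1AR-DT*-OE libraries A to C, with means of 57.1 ± 5.41 (SD, n = 3) and 56.7 ± 3.71 (SD, n = 3). Per kb of the longest transcript, *Armcx6* had control and *AP1AR-DT*-OE means of 0.294 and 4.78, and *Armcx3* of 16.2 and 13.4. The near match of gain and loss was not seen on that scale. The longest transcripts of both genes share no stretch of 100 bases, and the lower *Armcx3* level shrank to a log2 fold change of -0.085 with correction for GC content. Whether the changes of both genes are related was not tested.

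Among the 845 X-linked genes tested, 22 (2.604%) were called higher and 93 (11.0%) lower, against 5.10% and 7.15% of all genes tested, which include them. A log2 fold change below 0 was seen in 542 (64.1%), against 51.5% of all genes. The difference was not tested.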
